A study of Oryza sativa with 26 samples.

Results

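CAD6 and CAD8C are 2 rice genes of the cinnamyl alcohol dehydrogenase family, described here across anther development. The members are the probe sets that the array's gene table assigns to CAD6 (LOC4335223) and to CAD8C (LOC9269515), 2 of the 17905 genes that have a probe set of their own on the array. CAD6 has 1 probe set and CAD8C has 2, among 57194 in all; the second CAD8C probe set is outside the rule and is described beside the first. Both genes were chosen by their measured levels over these stages, so those levels are given as a description with no test between stages, and nothing is supported with them.

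Whole anthers of rice (Oryza sativa, no cultivar given in the labels) were profiled on 26 Affymetrix Rice Genome Arrays, on which probe sets of short oligonucleotides read transcripts, some of them those of more than 1 gene. The stages were An1 (hypodermal archesporial cells forming, 3 arrays), Mei1 (premeiotic S or G2 phase, 3 arrays), M1 (4 arrays at leptotene), M2 (3 arrays from zygotene to pachytene), M3 (diplotene to tetrad, 4 arrays), P1 (uninucleate gametophyte, 3 arrays), P2 (bicellular gametophyte, 3 arrays) and P3 (tricellular, mature pollen, 3 arrays). All plants grew untreated in paddy fields at Mishima, and each array's label gives a biological replicate number. The unit throughout is the deposited linear intensity, in which 1 is the 75th percentile of each array. Log2 values are log2(intensity + 1), a scale that understates changes of dim probe sets.

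Cinnamyl alcohol dehydrogenases reduce cinnamaldehydes to the matching alcohols, the monolignols that are polymerised into lignin. The route to them starts with phenylalanine ammonia-lyase (PAL), continues through 4-coumarate:CoA ligase (4CL), hydroxycinnamoyl transferases (HCT) and O-methyltransferases, and reaches the aldehyde through cinnamoyl-CoA reductase (CCR). The same early steps also feed flavonoids and the phenolic part of sporopollenin, the polymer of the pollen wall whose precursors come from the tapetum, the innermost layer of the anther wall. In rice, CAD2 is known as GOLD HULL AND INTERNODE2 and CAD7 as FLEXIBLE CULM1, and loss of either alters lignin in the stem.

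The tissue labels were set against marker genes chosen for 4 cell classes, summed by array. The 7 measured tapetum markers of 9 listed summed to 3.83 to 6.12 in An1, 8.23 to 13.5 in Mei1, 19.4 to 54.7 in M1, 147 to 219 in M2, 346 to 413 in M3, 362 to 485 in P1, 148 to 241 in P2 and 2.66 to 5.03 in P3. They did not move as one: in P2, RTS averaged 144 and C6 29.9, while C4 averaged 0.317 in P2, against 128 in P1, and CYP703A3 averaged 0.436 in P2, against 34.3 in P1. Earlier, RTS averaged 0.177 in M3, against 85.8 in P1, and EAT1 averaged 2.96 in M2, against 9.29 in M1. The 5 measured germ cell and meiosis markers of 8 listed summed to 52.8 to 58.5 in An1, 50.7 to 54.6 in Mei1, 20.3 to 34.9 in M1, 7.74 to 10.7 in M2, 6.49 to 7.87 in M3, 5.68 to 6.0 in P1, 5.47 to 7.91 in P2 and 2.64 to 3.83 in P3. MEL1 made up most of that sum in An1, at 45.8, DMC1 was highest in M1, at 1.80, and ZEP1 averaged 1.72 in P3, against 1.66 in An1. The 3 measured late pollen markers of 5 listed summed to 2.90 to 3.59 in An1 and to 106 to 306 in P3. Of 3 green tissue genes listed, the 2 measured, RBCS and CAB2R, summed to 14.4 to 26.3 in An1, 33.4 to 85.4 in P1 and 1.5 to 2.74 in P3. CAB2R made up most of the An1 sum, at 21.1, where RBCS averaged 0.856. Array medians lay between 0.241 and 0.428, and the mean correlation of an array with the others of its stage was 0.938 or more outside P3 and 0.842, 0.914 and 0.909 on the P3 arrays.

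M2 replicate 2 and P3 replicate 1 stood apart from the rest. The summed intensity of 19 small heat shock protein genes, chaperones induced by heat, was 395 on M2 replicate 2 and 328 on P3 replicate 1, against 28.2 to 146 on the other 24 arrays. P3 replicate 1 correlated more with the P2 arrays (0.859) than with the other P3 arrays (0.842). Likewise, Mei1 replicates 1 and 2 correlated more with the An1 arrays (0.988 and 0.986) than with the other Mei1 arrays (0.982 each). Without M2 replicate 2 the M2 mean was 1.70 ± 0.268 for CAD6 and 4.60 ± 1.15 for CAD8C, and without P3 replicate 1 the P3 mean was 0.410 ± 0.131 for CAD6 and 0.591 ± 0.205 for CAD8C (SD, n = 2 each). Without both, the log2 difference of CAD6 was -2.03 for M2 over M1, 2.43 for P1 over M2 and -2.49 for P3 over P2.

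CAD6 had 2 separate high points, one at leptotene and one at the uninucleate gametophyte, with a low between them at zygotene to pachytene. CAD6 intensity was 0.923, 0.966 and 1.70 on the An1 arrays and 3.08, 5.46 and 4.61 on the Mei1 arrays. It was 11.9, 11.9, 12.5 and 5.56 on the M1 arrays and 1.89, 1.20 and 1.51 on the M2 arrays. Every M1 array thus lay above every M2 array, and every M2 array lay below every Mei1 array. CAD6 intensity was 2.04, 4.37, 1.99 and 3.77 on the M3 arrays and 8.98, 15.9 and 17.1 on the P1 arrays. It was 11.1, 5.05 and 5.79 on the P2 arrays and 0.224, 0.502 and 0.317 on the P3 arrays. All P1 arrays lay above all M3 arrays, and all P3 arrays lay below the lowest array of every other stage.

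The CAD6 stage means were 1.20 ± 0.438 in An1, 4.38 ± 1.21 in Mei1, 10.5 ± 3.29 in M1, 1.54 ± 0.346 in M2, 3.04 ± 1.21 in M3, 14 ± 4.39 in P1, 7.31 ± 3.30 in P2 and 0.348 ± 0.142 in P3 (SD, n = 4 in M1 and M3, n = 3 elsewhere). On the log2 scale the differences between consecutive stages, later minus earlier, were 1.28 for Mei1 over An1, 1.06 for M1 over Mei1, -2.13 for M2 over M1, 0.63 for M3 over M2, 1.89 for P1 over M3, -0.87 for P2 over P1 and -2.56 for P3 over P2. The arrays overlapped at the step between P2 and P1 and at none of the other 6 steps. The share of all probe sets whose arrays separate at each step was not counted. With so few arrays per stage some separate by chance, so this describes CAD6 and sets it apart from no other gene. P1 was 9.12 times M2, and its 3 arrays overlapped with the M1 arrays, with a log2 difference of 0.40 for P1 over M1. The P3 mean was 21.0-fold lower than the P2 mean and 40.3-fold lower than the P1 mean.

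Ordered by mean, the CAD6 stages ran P1, M1, P2, Mei1, M3, M2, An1 and P3. Neighbours in that order overlapped in their arrays except M3 with M2 and An1 with P3, so the order of adjacent stages from P1 to M3, and that of M2 and An1, did not exceed the spread between arrays. As a rank among all probe sets of its own array, CAD6 stood at percentiles 97.0 to 98.8 in P1, 94.4 to 98.3 in M1, 77.5 to 84.3 in M2 and 33.9 to 57.1 in P3. It was below the array median on 2 of 26 arrays, both of P3.

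CAD8C had a single high point, at zygotene to pachytene, the stage at which CAD6 had its low between the high points. CAD8C intensity was 0.135, 0.120 and 0.153 on the An1 arrays and 0.191, 0.125 and 0.169 on the Mei1 arrays. It was 0.670, 0.787, 1.32 and 3.55 on the M1 arrays and 5.41, 4.23 and 3.79 on the M2 arrays. The M2 arrays lay above the arrays of all 7 other stages, and the fourth M1 array came nearest to them. CAD8C intensity was 0.945, 3.07, 2.02 and 1.03 on the M3 arrays and 0.857, 0.607 and 0.547 on the P1 arrays. It was 0.514, 0.506 and 0.651 on the P2 arrays and 1.01, 0.446 and 0.736 on the P3 arrays. Among these 4 stages the M3 arrays overlapped with P3 but not with P1 or P2, and P1, P2 and P3 overlapped with one another.

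**Figure D1:**
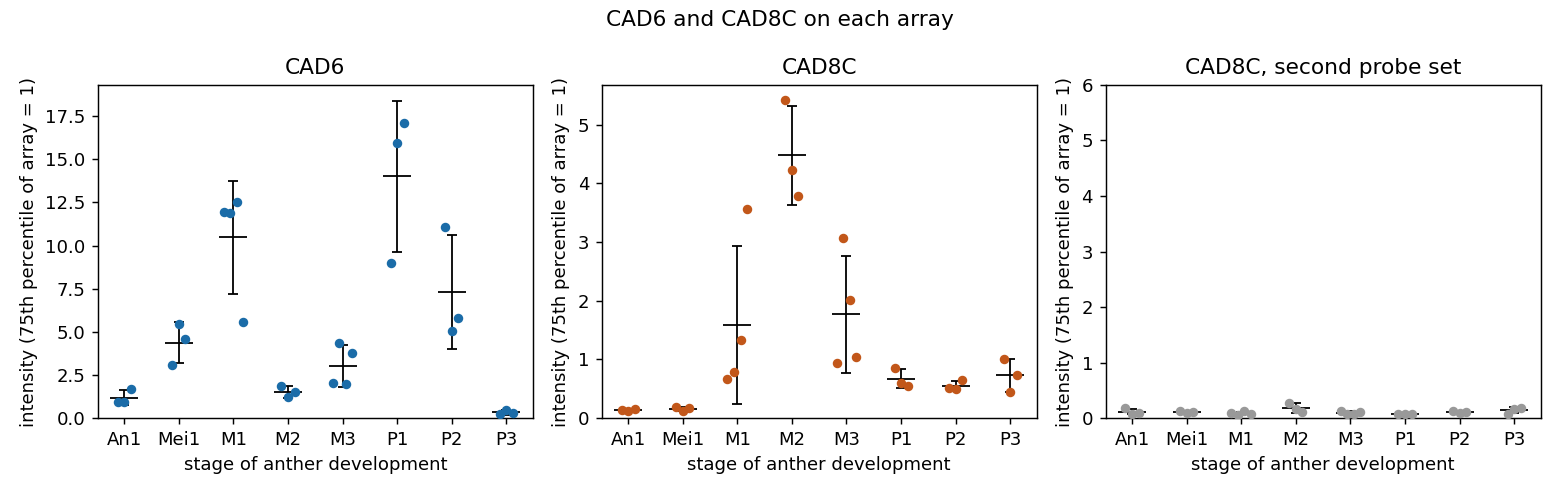
Intensity (75th percentile of each array = 1) of CAD6, CAD8C and the second CAD8C probe set in the 8 stages of anther development, each panel with its own linear axis. Points are single arrays and black bars are the stage mean ± SD; CAD6 shows high points in M1 and P1 with M2 arrays at 1.20 to 1.89 between them, CAD8C shows M2 arrays at 3.79 to 5.41 above all others, and the second CAD8C probe set reads 0.283 or less.

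The CAD8C stage means were 0.136 ± 0.0169 in An1, 0.162 ± 0.0336 in Mei1, 1.58 ± 1.34 in M1, 4.48 ± 0.838 in M2, 1.77 ± 0.997 in M3, 0.670 ± 0.164 in P1, 0.557 ± 0.0817 in P2 and 0.732 ± 0.283 in P3 (SD, n = 4 in M1 and M3, n = 3 elsewhere). The consecutive log2 differences, later minus earlier, were 0.03 for Mei1 over An1, 1.03 for M1 over Mei1, 1.20 for M2 over M1, -1.04 for M3 over M2, -0.67 for P1 over M3, -0.10 for P2 over P1 and 0.14 for P3 over P2. The arrays did not overlap at the 4 steps between Mei1 and P1, and they overlapped at the other 3. As for CAD6, the share of all probe sets that separate at these steps was not counted. The M2 mean was 27.7 times the Mei1 mean and 32.9 times the An1 mean, both of which were near the bottom of the intensity scale, so the size of these ratios rests on dim values. The log2 difference was 2.23 for M2 over Mei1 and -1.71 for P1 over M2.

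Ordered by mean, the CAD8C stages ran M2, M3, M1, P3, P1, P2, Mei1 and An1. Neighbours in that order were separated beyond their arrays only between M2 and M3 and between P2 and Mei1. CAD8C stood at percentiles 12.9 to 35.2 of its array in An1 and Mei1 and at 91.7 to 94.5 in M2, and it was below the array median on 6 of 26 arrays. The deposited table holds no detection calls, so whether An1 and Mei1 exceeded background is unknown.

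The spread of both genes in M1 rested largely on the fourth M1 array, which had the lowest CAD6 and the highest CAD8C of its stage. Without that array the M1 mean was 12.1 ± 0.355 for CAD6 and 0.927 ± 0.349 for CAD8C (SD, n = 3). For CAD8C the M2 mean was then 4.83 times the M1 mean, against 2.83 times with all 4 arrays, and the log2 difference of M1 over Mei1 was 0.72, against 1.03. On the 4 M1 arrays, replicates 1 to 4, the summed tapetum markers were 19.4, 22.9, 35.5 and 54.7, and the summed germ cell markers were 34.9, 27.9, 24.1 and 20.3. The mean correlation of these arrays with the M2 arrays was 0.935, 0.939, 0.942 and 0.947. The fourth array was thus the highest of its stage in the tapetum sum and in likeness to M2 and the lowest in the germ cell sum. The part of these quantities in the M1 spread was not tested. In whole anthers, fewer cells of a type and less RNA per cell cannot be told apart.

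The second CAD8C probe set was dim throughout. It read 0.0645 to 0.283 over the 26 arrays, with a median of 0.106, and lay below the array median on all 26. Its highest stage mean was also in M2, at 0.186 ± 0.0885, against 0.0815 to 0.143 in the other stages (SD, n = 3 in M2). Its stage means spanned 0.13 on the log2 scale and correlated with those of the first at 0.52 over the 8 stages, and it failed the filter on low values, so it was not tested. The CAD8C course described here therefore rests on 1 probe set.

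Across the 8 stages the log2 means of CAD6 and CAD8C had a Pearson r of -0.10, a description over 8 points that share the same arrays. In gene order, CAD8C lies between CAD8B and CAD8D, with CAD8A next to CAD8B, in the RefSeq annotation of assembly ASM3414082v1. CAD8B, CAD8D and CAD9 were not analysed here, since no probe set was assigned to them. CAD8A, the measured CAD gene nearest to CAD8C in gene order, had stage means between 0.161 and 0.295 (SDs 0.0105 to 0.0594).

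Among all 47799 probe sets that passed the filter on low values, the stage means of 11667 (24.4%) spanned at least 1 log2 unit, and the median span was 0.41. The span was 3.43 for CAD6 and 2.26 for CAD8C, with 1049 probe sets (2.19%) above CAD6 and 3073 (6.43%) above CAD8C. Highest in M2 with a span of at least 1 were 1056 probe sets (2.21%), CAD8C among them. An M2 mean at least 1 log2 unit below both M1 and P1, as in CAD6, was found for 17 probe sets (0.0356%). CAD6 had the largest difference between M2 and M1 among those 17, and 5 of them had a larger difference between P1 and M2 than CAD6. These shares describe the courses for which the genes were chosen and are not a test of them.

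The other measured genes of the CAD family were CAD2, CAD7, CAD1, CAD3 and CAD8A, and the tested difference was whether each changed over the 8 stages and between consecutive stages. With limma over all tested probe sets, a call needing a log2 change of at least 1 and a p under 0.05 after Benjamini-Hochberg adjustment, the stage test called 4 of these 5, against 24.2% of all tested probe sets. CAD2 and CAD7 were highest at P1, as CAD6 was, but neither had the M1 high point and the M2 low of CAD6. Their values are set beside CAD6 here because they share the family, and levels are not compared between probe sets.

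CAD2 averaged 6.21 ± 1.13 in An1, 10.2 ± 1.49 in Mei1, 12 ± 2.23 in M1, 10.8 ± 1.94 in M2, 29.2 ± 6.29 in M3, 32.1 ± 11.4 in P1, 6.21 ± 1.57 in P2 and 1.62 ± 0.317 in P3 (SD, n = 4 in M1 and M3, n = 3 elsewhere). CAD2 rose by 1.35 log2 units in M3 over M2 (SE 0.22, limma adjusted p = 0.000246), the step at which CAD6 was 0.63 higher. CAD7 averaged 3.01 ± 0.360, 2.85 ± 0.398, 2.74 ± 0.611, 2.39 ± 0.652, 8.10 ± 0.898, 15.2 ± 2.22, 2.87 ± 1.58 and 0.350 ± 0.166 from An1 to P3 (SD, same n). CAD7 rose by 1.44 in M3 over M2 (SE 0.19, limma adjusted p = 2.46e-05), and neither gene's M3 arrays overlapped with its M2 arrays. Between M2 and M1, where CAD6 differed by -2.13, the differences were -0.13 for CAD2 (limma adjusted p = 0.733), -0.15 for CAD7 (limma adjusted p = 0.65), 0.46 for CAD1 (limma adjusted p = 0.0635) and 0.13 for CAD3 (limma adjusted p = 0.829). None of these 4 passed the threshold, which does not show that they stayed level.

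**Figure D2:**
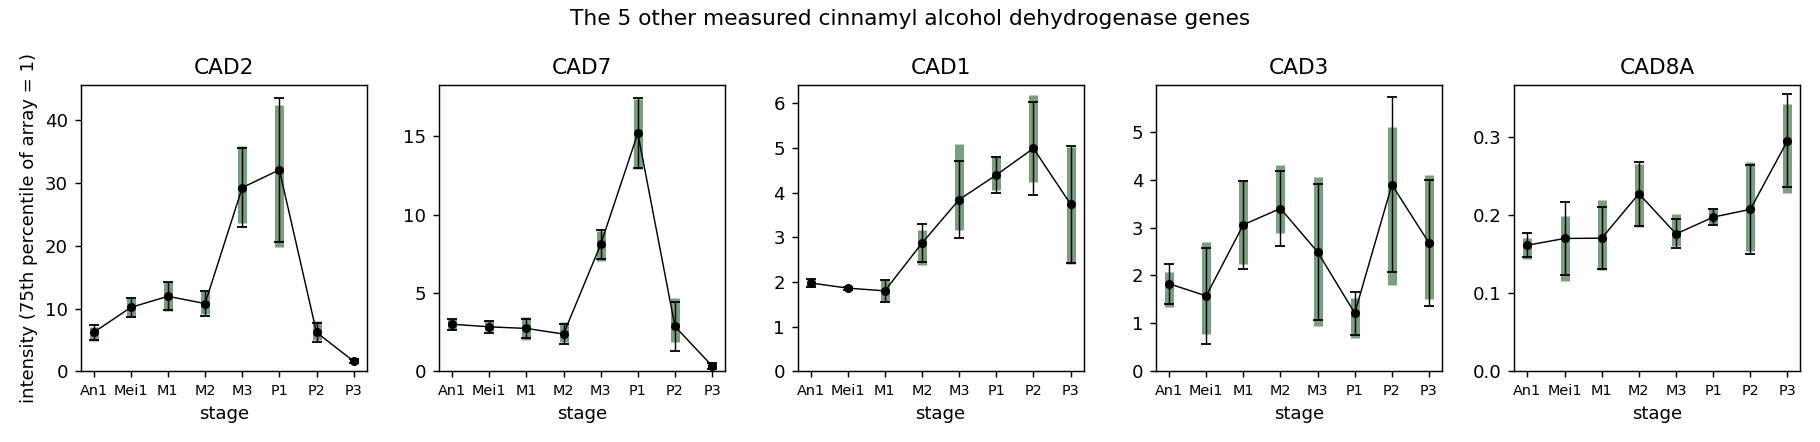
Intensity (75th percentile of each array = 1) of the 5 other measured CAD genes in the 8 stages, each panel with its own linear axis, with points and lines for stage means, error bars for the SD and green bars from the lowest to the highest array. CAD2 and CAD7 have their highest means in M3 and P1 and no M2 low after a high M1, and CAD8A stays between 0.161 and 0.295 in its stage means.

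After P1 the CAD genes with a P1 high point differed in size of change. In P2 over P1, where the CAD6 arrays overlapped at a difference of -0.87, CAD2 fell by 2.15 log2 units (SE 0.24, limma adjusted p = 2.82e-07) and CAD7 fell by 2.13 (SE 0.20, limma adjusted p = 3.49e-08). In P3 over P2, where CAD6 differed by -2.56, CAD2 fell by 1.45 (SE 0.24, limma adjusted p = 4.84e-05) and CAD7 also fell by 1.45 (limma adjusted p = 8.03e-06). At P1 over M3 the differences were 0.09 for CAD2 (limma adjusted p = 0.977) and 0.83 for CAD7 (limma adjusted p = 0.00933, under the size threshold), beside 1.89 for CAD6. The differences between these genes' steps were not tested. CAD1 means lay at 1.98, 1.86, 1.80, 2.87, 3.84, 4.40, 4.99 and 3.74 from An1 to P3 (SDs 0.0367 to 1.31), and CAD3 means at 1.83, 1.57, 3.06, 3.4, 2.49, 1.22, 3.89 and 2.68 (SDs 0.414 to 1.82). CAD3 rose by 1.08 in P2 over P1 (SE 0.35, limma adjusted p = 0.0264), a call lost without P1 replicate 3, P2 replicate 2 or P2 replicate 3.

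The wider route was read from 30 measured genes other than CAD6 and CAD8C, of which 27 passed the filter. The stage test called 16 of the 27 (59.3%), against 24.2% of all probe sets, and their median span was 1.27, against 0.41. The 27 are named genes, each read by its probe set with the highest mean. All probe sets include dim ones, further ones of the same gene and ones with no gene. The shares thus come from unlike sets, here, for the CAD genes above and at the steps below, and their difference was not tested. By sub-list the stage test called 4 of 5 other CAD genes, 2 of 2 PAL genes, 5 of 8 genes of the 4CL list and 2 of 3 HCT genes. It also called 2 of 2 O-methyltransferases, 0 of 1 CCR gene and 1 of 6 laccases. The 4CL list was drawn by symbol and mixes 4CL genes with the 4CL-like genes 4CLL1, 4CLL4 and 4CLL7. Of these, 4CLL1 and 4CLL4 were called, and whether they act in the route was not examined. Laccases oxidise monolignols in the cell wall. LAC15, LAC19 and LAC20 failed the filter.

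The tests between consecutive stages made calls at 6 of the 7 steps. In Mei1 over An1, 0 of 27 rose and 0 fell, against 0.0209% and 0.0% of all probe sets, with 1183 probe sets at an unadjusted limma p under 0.05. In M1 over Mei1, where CAD6 and CAD8C were both higher by about 1 log2 unit, 6 rose and 0 fell, against 1.09% and 0.0523%. These were PAL, PAL06, 4CL5, HCT2, ROMT-15 and ROMT-17. In M2 over M1, where CAD6 was lower and CAD8C higher, 1 rose, PAL, and 0 fell, against 0.58% and 0.268%.

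In M3 over M2, 2 rose, CAD2 and CAD7, and 0 fell, against 1.06% and 0.975%. In P1 over M3, where CAD6 was higher and CAD8C lower, 0 rose and 1 fell, 4CL5, against 0.59% and 0.661%. In P2 over P1, 1 rose, CAD3, and 7 fell, against 3.23% and 2.24%. In P3 over P2, 3 rose and 3 fell, against 4.22% and 4.07%. The median log2 difference of the 27 genes at the 7 steps was 0.01, 0.07, 0.19, -0.03, 0.04, -0.23 and 0.10, beside 0.01, -0.03, 0.05, -0.04, -0.01, 0.01 and 0.12 for all probe sets.

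The genes called in M1 over Mei1 include the entry enzymes. PAL, which deaminates phenylalanine, averaged 2.38, 3.78, 10.5, 23.5, 37.4, 41.8, 17.3 and 4.11 from An1 to P3 (SDs 0.185 to 13.6), and rose by 1.26 in M1 over Mei1 (limma adjusted p = 0.00945) and by 1.09 in M2 over M1 (limma adjusted p = 0.0233). The second call was lost without M1 replicate 2, M2 replicate 2 or M2 replicate 3. The PAL probe set is of a type that can bind related transcripts. The 4 other PAL probe sets, some of the same type, correlated with it at 0.82 or more over the stages. The one at 0.82 was dim, with a mean of 0.621, was highest in M2 and spanned 0.77 log2 units. PAL06 averaged 0.241, 0.319, 4.0, 3.30, 1.25, 0.309, 0.0802 and 0.336 (SDs 0.0114 to 1.67), and rose by 1.86 in M1 over Mei1 (limma adjusted p = 4.18e-05). Unlike PAL, which stayed high to P1, PAL06 had its highest means in M1 and M2.

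4CL5, which joins hydroxycinnamates to coenzyme A, averaged 0.657, 1.3, 7.22, 8.43, 6.26, 1.88, 0.336 and 0.575 (SDs 0.0693 to 5.82), highest in M2 by mean intensity and in M1 by mean log2 value, and rose by 1.83 in M1 over Mei1 (limma adjusted p = 0.00377). Its fall of 1.44 in P1 over M3 (limma adjusted p = 0.0267) lost its call without any 1 of 4 arrays, M3 replicates 3 and 4 and P1 replicates 2 and 3, and with the replicate block, where it was -1.34 (limma adjusted p = 0.0612). HCT2 averaged 0.432, 0.885, 7.59, 12, 8.27, 8.0, 3.51 and 5.41 (SDs 0.0349 to 3.22), and rose by 2.19 in M1 over Mei1 (limma adjusted p = 2.47e-06). The O-methyltransferases ROMT-15 and ROMT-17 rose by 1.66 and 1.46 in M1 over Mei1 (limma adjusted p = 8.39e-07 and 0.000654). ROMT-15 averaged 5.15, 5.75, 20.4, 30.0, 36.7, 23.8, 5.85 and 27.6 over the stages (SDs 0.306 to 5.22).

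**Figure D3:**
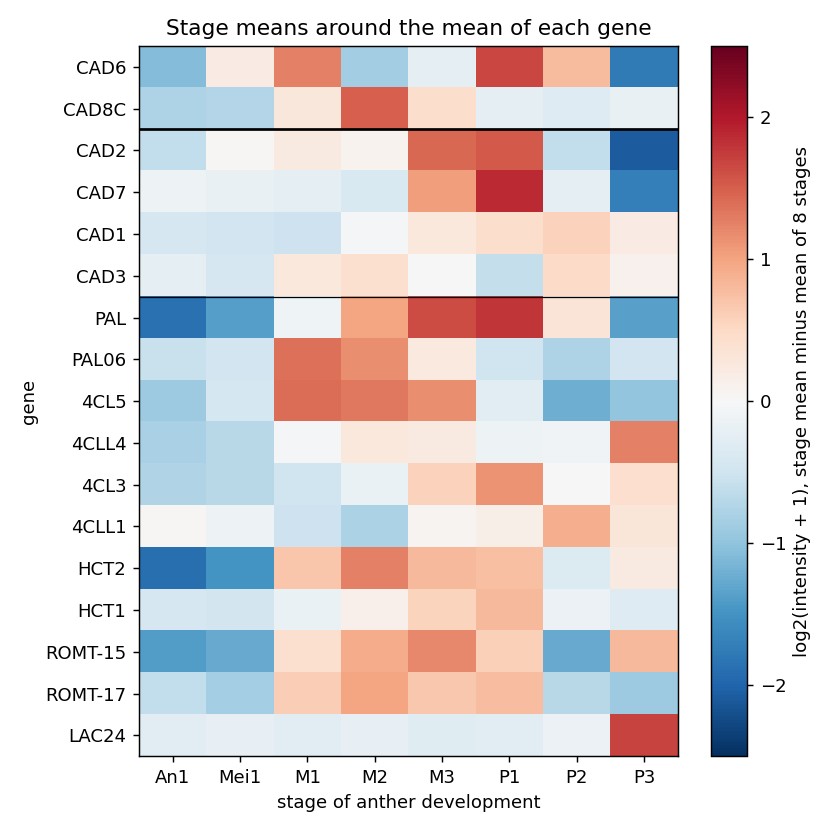
Heat map of the stage means of log2(intensity + 1), each gene centred on its own mean over the 8 stages. Lines separate CAD6 and CAD8C, 4 other CAD genes and other named genes listed for the monolignol route, 4CL-like ones included. PAL06, 4CL5 and HCT2 are each higher in M1 and M2 than in An1 and Mei1 and differ in later stages. Of the CAD genes drawn only CAD6 has M1 and P1 both above M2 by 1 log2 unit or more.

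CCR was represented by 1 gene. CCR1, a cinnamoyl-CoA reductase that makes the substrate of these dehydrogenases, averaged between 0.137 ± 0.0397 in P1 and 0.628 ± 0.382 in M2 (SD, n = 3 each) and was not called, with a span of 0.49 (limma adjusted p = 0.00648). Described over the 8 stages, the log2 means of CAD8C correlated with those of HCT2 at 0.82, PAL06 at 0.80, 4CL5 and CCR1 both at 0.79 and ROMT-17 at 0.76, while those of CAD6 correlated with CAD7 at 0.65 and CAD2 at 0.64. All of these share the same 26 arrays.

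Other genes listed for the route also changed after P1. In P2 over P1, PAL fell by 1.47 (limma adjusted p = 0.00131), 4CL3 by 1.11 (limma adjusted p = 1.4e-05), HCT2 by 1.11 (limma adjusted p = 0.0016), ROMT-15 by 1.85 (limma adjusted p = 2.01e-08) and ROMT-17 by 1.46 (limma adjusted p = 0.000251). The call of 4CL3 was lost without P1 replicate 1 or P2 replicate 2, and that of HCT2 without P2 replicate 2 or 3. In P3 over P2, PAL fell by 1.68 (limma adjusted p = 0.000257), 4CLL4 rose by 1.35 (limma adjusted p = 0.00036), LAC24 rose by 1.82 (limma adjusted p = 0.000554) and ROMT-15 rose by 2.07 (limma adjusted p = 5.29e-09). The 4CLL4 call was lost without P3 replicate 3, and the LAC24 call with array weights, where it was 0.60. With a pseudocount of 4 in place of 1, 12 of the 24 calls at the steps lost their place: CAD7 in M3 over M2, CAD3 in P2 over P1, CAD2 and CAD7 in P3 over P2, both PAL rises, PAL06, the 4CL3 and 4CL5 falls, 4CLL4, HCT2 in P2 over P1 and LAC24. Of the laccases LAC24 was the only one called by the stage test, and its P3 mean was 5.10 ± 5.78 (SD, n = 3).

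There were 1376 genes with a symbol and a span of at least 1 log2 unit, CAD6 included. The 5 others whose 8 stage means were most like those of CAD6 were PDS (Pearson r 0.94), FACE-1 (0.82), ceramidase (0.78), Rac1 (0.76) and IAA21 (0.76). PDS, phytoene desaturase of carotenoid synthesis, averaged 2.77, 4.72, 9.85, 5.48, 6.01, 14.5, 6.85 and 1.56 from An1 to P3 (SDs 0.263 to 4.93), high in M1 and P1 as CAD6 was, though with a shallower M2. IAA21, an Aux/IAA protein of auxin response, averaged 7.34, 7.58, 4.89, 3.21, 8.85, 28.4, 15.4 and 1.46 (SDs 0.282 to 8.83), and so shared the M2 low and the P1 high point without the M1 one.

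The 5 most like CAD8C were TIP3-2, AGO3 and HGGT (r 0.96 each) and GER6 and OsC3H47 (0.95 each). AGO3, an Argonaute protein, averaged 0.266, 0.323, 1.59, 2.28, 1.16, 0.485, 0.511 and 0.850 (SDs 0.0281 to 0.739), and OsC3H47, a CCCH zinc finger protein, averaged 0.212, 0.224, 1.71, 4.90, 1.69, 0.218, 0.166 and 0.234 (SDs 0.0473 to 2.73). TIP3-2, a tonoplast aquaporin, had its highest mean, 1.60 ± 0.102, in M2, where HGGT, an enzyme of tocotrienol synthesis, had 3.24 ± 0.174 (SD, n = 3 each). All 5 were highest in M2, as CAD8C was. Likeness here is a correlation of 8 stage means from shared arrays and carries no p.

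**Figure D4:**
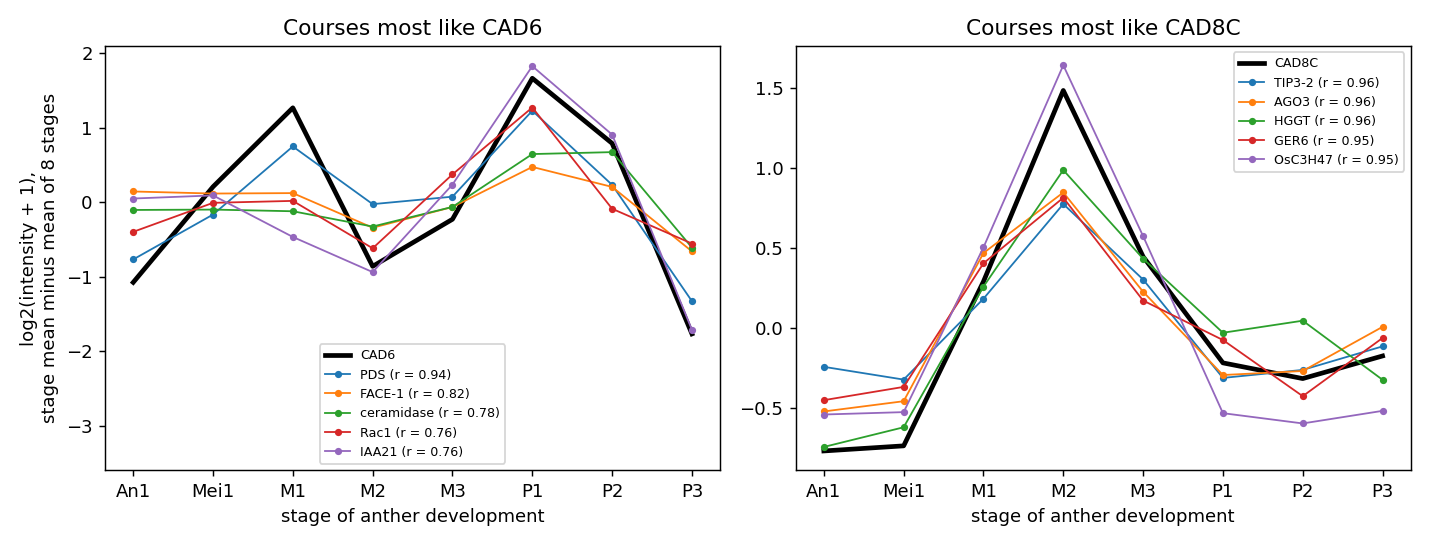
Stage means of log2(intensity + 1), centred on each gene's mean over the 8 stages, for CAD6 (left) and CAD8C (right) as thick black lines with the 5 genes most like each as thin lines. PDS follows CAD6 at both high points, and all 5 genes on the right peak in M2.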

How the data were processed

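Per the deposited table, the values are linear intensity, divided by the authors so that each array's 75th percentile is 1, as the values themselves show on all 26 arrays. The submitters' processing notes name GCOS 1.3; background correction and summarisation are not given in the sources used here. Of 57194 probe sets left after 187 controls, 47799 (83.6%) had a mean in 1 or more stages that exceeded the 40th percentile of the pooled log2 values, and these were tested. Values were fitted as log2(intensity + 1) by stage with limma 3.58.1 in R 4.3.3 (trend in the variance, two-sided tests, Benjamini-Hochberg adjustment over all tested probe sets), checked on simulated data. Each gene was read by its probe set with the highest mean. Symbols came from the array's gene table and RefSeq; 22436 probe sets name 1 gene and 95 several. The number of arrays limits the precision, and p-values measure the spread between these arrays.

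The genes named are CAD6, CAD8C, every other CAD gene, up to 4 members of each sub-list with the largest span of stage means and the 5 genes most like each member; genes at a called step are named too. The members, gene lists and markers were chosen with earlier results of these data known.

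Replicate numbers come from the labels' titles. Deviations of same-numbered arrays of consecutive stages correlated over 0.1 in 9 of 21 pairs (-0.3 to 0.538), and in all 3 pairs for P3 and P2 alone. The p-values given are from the fit without the replicate block; with it, no P3 over P2 call of the listed genes changed. Other values came from pandas 2.3.3 and numpy 2.4.6 in Python 3.11.15, and plots from matplotlib 3.10.9.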

Additional observations from a re-analysis of the deposited data

Results flagged for a closer look

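In 3 of 64 sets of 4 arrays (1 gene in M1 or M3), 1 array stood apart from the other 3 by Dixon's criterion, which chance alone meets in about 1 of 20 sets. The share flagged is near that rate, so the flags name arrays to look at and show no effect. The sets included CAD6 and CAD8C, which were chosen by their levels, so the CAD6 flag is a description only. CAD6 read 5.56 on M1 replicate 4, against 11.9 to 12.5 on the other M1 arrays. ROMT-15 read 44.4 on M3 replicate 1, against 33.8 to 34.4 on the others. LAC24 read 0.138 on M3 replicate 1, against 0.0896 to 0.0960 on the others.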

How the results depend on the processing

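Under the 36 alternatives, none of the 24 calls of single genes changed direction. Nor did any of the 14 differences of CAD6 and CAD8C between consecutive stages, but most alternatives could not change a given one of them. The filter, variance trend, array weights and replicate block do not enter these differences of stage means. Leaving out an array alters only the steps of its own stage. Uncalled differences of other genes were not rerun. An alternative, leaving out M2 replicate 2 and P3 replicate 1, the arrays highest in small heat shock transcripts, was chosen after seeing the data and gave 15 genes called over the stages and 26 calls at the steps. The scale decides most: with a pseudocount of 4 the counts were 9 (16 with 1) and 12 (24 with 1), the log2 differences of CAD6 were -1.35 for M2 over M1, 1.67 for P1 over M2 and -1.34 for P3 over P2, and those of CAD8C were 1.02 for M2 over Mei1 and -0.86 for P1 over M2. With a pseudocount at the 20th percentile, 0.149, the CAD6 differences were -2.61, 3.04 and -3.86 and the CAD8C differences 3.89 and -2.5. A larger pseudocount compresses differences of dim probe sets by construction. Leaving out 1 array at a time gave 14 to 16 genes over the stages and 21 to 25 calls at the steps, CAD6 differences of -2.38 to -2.03, 2.37 to 2.80 and -2.75 to -2.25, and CAD8C differences of 2.11 to 2.32 and -1.80 to -1.59. With the replicate block the counts were 16 and 24, and only the 4CL5 call in P1 over M3 was lost. Of the 24 calls of single genes, 12 held in every alternative. With array weights LAC24 in P3 over P2 was 0.60 and no longer called.

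Over all probe sets the stage test called 11560, 5070 with a pseudocount of 4 and 20854 with that at the 20th percentile. In Mei1 over An1 the count of 10 was 36 with array weights and 0 to 3 without An1 replicate 1 or 2 or Mei1 replicate 2 or 3. Without detection calls, how far a dim probe set lies above background is unknown.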

Other observations

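Of the 17 probe sets with an M2 mean at least 1 log2 unit below both M1 and P1, 15 name 1 gene, 14 genes in all, and 4 of these have a symbol, named here after their values were seen. They are CAD6, BHLH141, MtN3-like and CAB2R. BHLH141, the tapetal transcription factor EAT1, averaged 1.40, 6.43, 9.29, 2.96, 16.5, 12.2, 2.5 and 0.237 from An1 to P3, with log2 differences of 1.45 for M1 minus M2 and 1.82 for P1 minus M2. MtN3-like averaged 2.74 ± 0.555 in M1, 0.820 ± 0.101 in M2 and 7.33 ± 0.750 in P1. CAB2R, a chlorophyll-binding protein, averaged 30.1 ± 9.58 in M1, 18.6 ± 18 in M2 and 59.2 ± 29.6 in P1 (SD, n = 4, 3 and 3), so its arrays vary more than those of CAD6.

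In each stage, the array most like the neighbouring stage from which CAD6 differed more was set beside the CAD6 levels. In 5 of 8 stages that array had the CAD6 level nearest the neighbouring mean. With so few arrays per stage, some matches arise by chance, and the neighbouring stage was itself picked by CAD6. The count was not tested or compared with that of other probe sets. In P1, the mean correlation with M3 was 0.962, 0.943 and 0.903 on arrays with CAD6 at 8.98, 15.9 and 17.1. In P3, the array most like P2 (0.859) had the lowest CAD6, 0.224.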
